A study of Rattus norvegicus with 8 samples.

Results

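The antioxidant and NRF2 target genes examined here are a set of 10 genes fixed by name, *Nfe2l2*, *Hmox1*, *Nqo1*, *Gclc*, *Gclm*, *Txnrd1*, *Srxn1*, *Cat*, *Sod2*, and *Sod3*. They were found by gene symbol in the deposited expression table of 32883 Ensembl genes, where 9 had a row, and *Srxn1* was not analysed here. All 9 passed the filter on low counts, which kept 13937 genes. The tissue was the right Achilles tendon of male wild-type (WT) Sprague-Dawley (SD) rats, 8 to 10 weeks old. In the 12 h p.r. (post-running) group, 4 rats ran uphill on a treadmill for 1 h and were euthanized after 12 h of rest. In the naïve control (NC) group, 4 rats stayed in their cages and were euthanized together with the runners. Each library is polyadenylate RNA from 1 rat, so the replicates are separate animals.

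NRF2, the protein encoded by *Nfe2l2*, is a transcription factor held at a low level by KEAP1, an adaptor that brings it to a ubiquitin ligase for degradation. Oxidants and electrophiles modify cysteines of KEAP1, NRF2 then escapes degradation, pairs with a small MAF protein, and binds the antioxidant response element (ARE) of its target genes. Because this control acts on the protein, the amount of *Nfe2l2* mRNA is not a measure of NRF2 activity, and the mRNA of target genes is often read in its place. The target enzymes among the members break down heme, reduce quinones, make glutathione, and keep thioredoxin reduced, whereas catalase and the superoxide dismutases remove hydrogen peroxide and superoxide directly.

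Of the 10 members, 8 had a promoter sequence in the RefSeq table of build GRCr8, which holds 250 bases before and 50 bases after each start. *Hmox1* and *Sod3* had none. The ARE core TGACNNNGC was searched on both strands, so that a match on the other strand reads GCNNNGTCA. It was found in the windows of 4 members and in 12.1% of all 33469 windows. The matches are shown because the ARE is the element that defines NRF2 targets. The capitals mark the core, the lower-case letters are up to 10 flanking bases, and positions count from +1 at the start of the gene. The *Nfe2l2* match lay at 39 to 47 (chr3:81028950-81028971, minus strand), the *Gclm* match at −172 to −164 (chr2:213031953-213031981, plus strand), the *Txnrd1* match at −78 to −70 in 1 of its 2 windows (chr7:22755964-22755992, minus strand), and the *Sod2* match at −35 to −27 (chr1:50050185-50050213, minus strand), all in GRCr8.
Nfe2l2: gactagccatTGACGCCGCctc
Gclm: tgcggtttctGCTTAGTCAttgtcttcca
Txnrd1: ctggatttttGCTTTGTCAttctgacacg
Sod2: ggcgctgccgGCAGGGTCAgcgcctagct
No match in *Nqo1*, *Gclc*, *Cat*, or *Srxn1* says only that these letters are absent from the window. The AP-1 core TGANTCA, which resembles the ARE, was found in 1 member, *Srxn1*, and in 7.33% of all windows, and no ARE match above overlapped it. The member windows had a median GC content of 62.0%, against 51.7% over all windows.

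Total counts ran from 7350509 to 12951397 per rat, and each member had between 89 and 5430 reads in a rat. The 9 tenocyte marker genes (*Tnmd*, *Scx*, *Mkx*, *Thbs4*, *Fmod*, *Col1a1*, *Col1a2*, *Comp*, and *Dcn*) were detected in every rat. Some libraries stood apart. Among the 12 h p.r. rats, replicate 3 had the lowest mean tenocyte marker level, 8.98 on the scale of log2 counts per 1e6 reads (CPM) against 10.04 to 10.30, and the highest mean over 8 skeletal muscle markers, 12.63 against 6.70 to 8.39. In the NC group, replicate 4 was lowest in the tenocyte markers, at 9.31 against 9.69 to 9.95. It was also lowest in the skeletal muscle markers, at 5.69 against 8.36 to 10.11, and in 6 adipocyte markers, at 8.98 against 9.25 to 9.87. NC replicate 3 was highest in 8 cartilage and bone markers, at 5.44 against 1.09 to 1.33. At 12 h p.r., replicate 1 was highest in these, at 4.11 against 0.32 to 1.23. The lowest rats of each group in them were 12 h p.r. replicate 3 and NC replicate 4. Members whose values move with these libraries are also given without them. In such bulk RNA, fewer cells of a type and less RNA per cell cannot be told apart.

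At 12 h p.r., 0 of the 9 members had an adjusted p below 0.05 in the quasi-likelihood test of edgeR (Benjamini-Hochberg adjustment, 13937 genes), against 0.00718% of all genes (1 gene). DESeq2 also called 0 of them. At an unadjusted p below 0.05, 1 member differed, *Sod3*, which is 11.1% of the members beside 9.51% of all genes tested, so the share of members was close to the background. Fitted log2 fold changes (12 h p.r. minus NC) were above 0 for 6 members and below 0 for 3, with a median of 0.03. Over all genes tested 7557 were above 0 and 6380 below, with a median of 0.02. The CPM values below are scaled by library factors of the trimmed mean of M values (TMM), and SE is the standard error of a fitted log2 fold change.

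**Figure D1:**
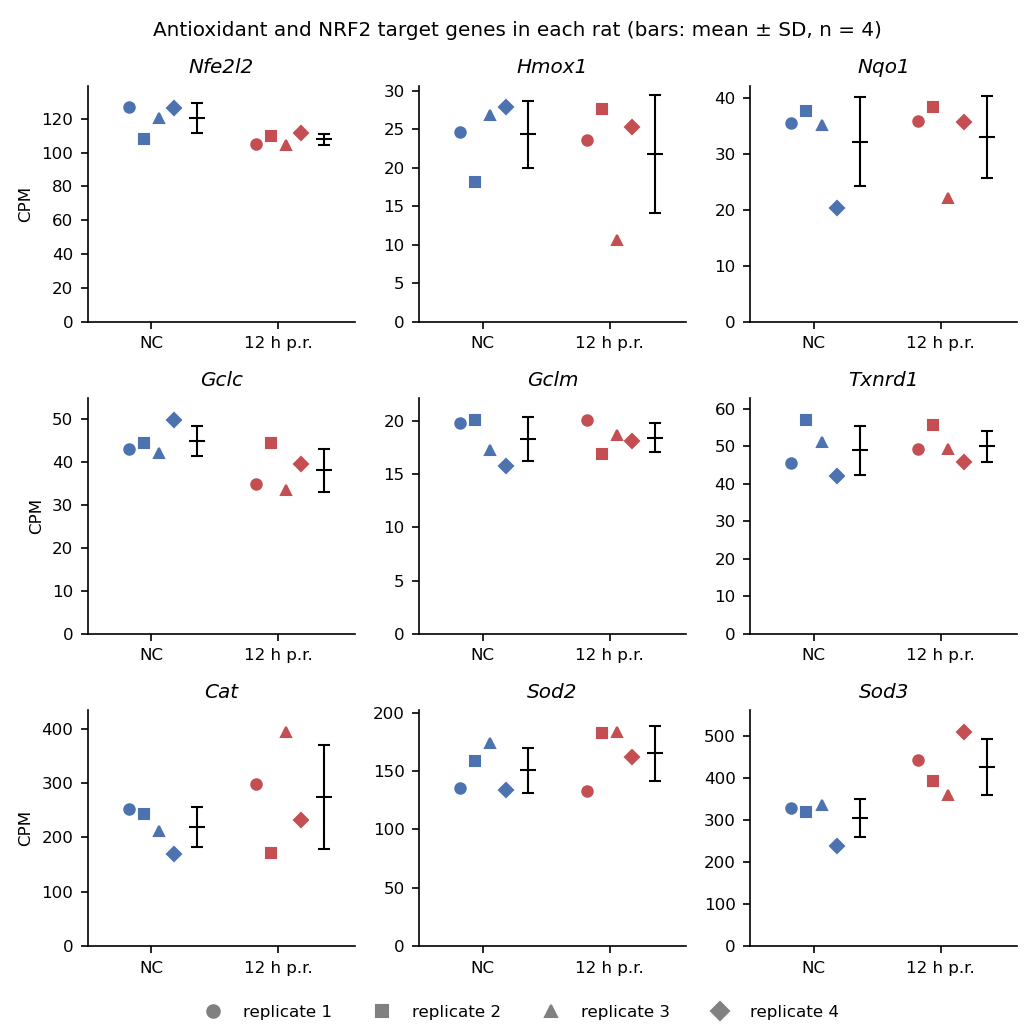
Expression of the 9 members in CPM (linear axis from 0), with 1 point per rat, a marker shape per replicate number, and bars for the mean ± SD of 4 rats. The groups overlap in every panel except *Sod3*, where the 12 h p.r. rats lie between 359 and 509.8 CPM and the NC rats between 237 and 335 CPM.

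The mRNA of the regulator itself, *Nfe2l2* (ENSRNOG00000001548), was at 105, 110.1, 104, and 111 CPM in 12 h p.r. replicates 1 to 4. In NC replicates 1 to 4 it was at 127, 108, 120.3, and 127 CPM. NC replicate 2 lay within the range of the runners, and the other NC rats lay above it. The group means were 108 ± 3.49 CPM at 12 h p.r. and 120.4 ± 8.87 CPM in the NC group (SD, n = 4 each). The log2 fold change of −0.16 (SE 0.09, 95% interval −0.35 to 0.03) did not pass the test (edgeR adjusted p = 0.589; 2-sided exact permutation test, p = 0.0857). *Nfe2l2* varied little between rats of a group. Its SD within groups was 0.08 on the log2 scale, lower than in all but 3.01% of the genes tested, whose median was 0.23. That rank was not matched for read number, and counting error adds more to the spread of genes with few reads. In the NC group the order of its values, 1, 4, 3, and 2 from the highest, was also the order of the mean level of 12 macrophage and leukocyte markers (6.81, 6.69, 6.53, and 5.27 log2 CPM). Its values in NC replicates 1 and 4 were nearly equal (126.8 and 126.7 CPM), so that part of the order is uncertain. In the runners its order, 4, 2, 1, and 3, was instead that of the tenocyte markers and not that of the leukocyte markers (2, 4, 1, and 3). Such matches of order in 4 rats can arise by chance, and neither was tested. As covariates, the leukocyte marker level gave a log2 fold change of −0.11 and the tenocyte marker level −0.17. *Keap1* (ENSRNOG00000020878), which encodes the inhibitor of NRF2, was at 49.7 ± 3.27 CPM and 48.0 ± 4.95 CPM (SD, n = 4 each), and its log2 fold change was 0.05 (SE 0.10, edgeR adjusted p = 0.895).

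*Hmox1* (ENSRNOG00000014117) encodes heme oxygenase 1, the inducible enzyme that opens heme to biliverdin, carbon monoxide, and iron. It was at 23.7, 27.7, 10.6, and 25.3 CPM in the 12 h p.r. rats. In the NC rats it was at 24.6, 18.2, 26.9, and 27.9 CPM. One runner, replicate 3, lay below all other rats, and the remaining runners lay within the NC range. The log2 fold change was −0.16 (SE 0.27, 95% interval −0.78 to 0.46, edgeR adjusted p = 0.881), and it was 0.06 without 12 h p.r. replicate 3, so its direction rests on that rat. Macrophages that clear red cells are known to express heme oxygenase 1. The order of the runners in *Hmox1* (2, 4, 1, and 3 from the highest) was the order of the 12 leukocyte markers, whose mean log2 CPM was 6.50, 6.01, 5.90, and 5.03. *Gclc*, described below, put the runners in the same order. In the NC rats the orders differed, 4, 3, 1, and 2 for *Hmox1* and 1, 4, 3, and 2 for the markers, with replicate 2 lowest in both. Of these 12 markers 11 had a fitted log2 fold change below 0, none was at 0 counts in any rat, and their summed level ran from 720.0 to 2978 CPM at 12 h p.r. and from 994 to 4284 CPM in the NC group. With their mean as a covariate the log2 fold change of *Hmox1* was 0.08, and with the tenocyte marker level as a covariate it was −0.45, so these adjustments moved it in opposite directions. A match of order in 4 rats can arise by chance, and the part of leukocytes in the spread of *Hmox1* was not tested.

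*Nqo1* (ENSRNOG00000012772) encodes a reductase that takes quinones to hydroquinones without a semiquinone radical, and it is among the genes most often used to read NRF2 activity. The runners had 35.8, 38.3, 22.1, and 35.8 CPM. The NC rats had 35.5, 37.8, 35.3, and 20.3 CPM. In each group 3 rats lay close together and 1 rat lay well below. The group means were 33.0 ± 7.36 CPM at 12 h p.r. and 32.2 ± 8.02 CPM in the NC group (SD, n = 4 each). This is a log2 difference of 0.04 (SE 0.23, 95% interval −0.47 to 0.55, edgeR adjusted p = 0.974). The low rats, 12 h p.r. replicate 3 and NC replicate 4, were also the lowest of their groups in the tenocyte markers. They were the lowest in the cartilage and bone markers too. With the tenocyte marker level as a covariate the log2 fold change was −0.14, and without both rats it was 0.02 (SE 0.09).

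Glutathione synthesis starts with glutamate-cysteine ligase, a dimer of the catalytic subunit encoded by *Gclc* and the modifier subunit encoded by *Gclm*, which raises the affinity of the enzyme for its substrate. *Gclc* (ENSRNOG00000006302) was at 34.9, 44.5, 33.4, and 39.7 CPM in the runners. It was at 43.0, 44.4, 42.2, and 49.96 CPM in the NC rats. Only runner replicate 2 reached the NC range. The log2 fold change of −0.23 (SE 0.11, 95% interval −0.48 to 0.01) had an edgeR adjusted p of 0.544 and an exact permutation p of 0.114 (2-sided). Without 12 h p.r. replicate 3 and NC replicate 4 it was −0.12. *Gclm* (ENSRNOG00000013409) ran from 16.9 to 20.1 CPM in the runners and from 15.8 to 20.1 CPM in the NC rats, and its log2 fold change was 0.02 (SE 0.12, 95% interval −0.25 to 0.28, edgeR adjusted p = 0.980). The subunits were at similar levels per gene length. The ratio of their FPKM values (fragments per kilobase of gene, scaled for depth), taken after the values had been seen and so not tested, was 0.850, 1.29, 0.873, and 1.07 in the runners and 1.06, 1.08, 1.19, and 1.54 in the NC rats.

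*Txnrd1* (ENSRNOG00000009088) encodes the cytosolic selenoenzyme that reduces thioredoxin with NADPH. Its expression was 49.2, 55.7, 49.4, and 45.8 CPM at 12 h p.r. and 45.5, 57.1, 51.1, and 42.2 CPM in the NC group. The runners lay inside the range of the NC rats. Its log2 fold change was 0.03 (SE 0.11, 95% interval −0.22 to 0.28, edgeR adjusted p = 0.951). As a fold, the interval ran from 0.857 to 1.22 times the NC level, close to that of *Gclm*, 0.843 to 1.21 times.

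*Cat* (ENSRNOG00000008364) encodes catalase, the peroxisomal enzyme that splits hydrogen peroxide into water and oxygen. The runners were spread widely, at 298, 171, 394, and 232 CPM. The NC rats were at 252, 243, 213, and 169 CPM. The highest value came from a runner, and the runners spanned nearly the whole range of the NC rats and beyond it. A log2 fold change of 0.32 (SE 0.25, 95% interval −0.23 to 0.88) did not pass the test (edgeR adjusted p = 0.711). Without 12 h p.r. replicate 3 it was 0.10, and without that rat and NC replicate 4 it was −0.01. With a marker level as a covariate it was 0.08 for the leukocyte, 0.19 for the skeletal muscle, and 0.39 for the tenocyte markers. Adipocytes also express catalase, and the order of the runners in *Cat* (3, 1, 4, and 2 from the highest) was the order of the 6 adipocyte markers, whose mean log2 CPM was 9.65, 9.60, 8.86, and 8.34. The NC rats kept the same order in both apart from replicates 1 and 2. Of the 6 adipocyte markers 5 had a fitted log2 fold change below 0, none was at 0 counts, and their summed level was 3208 to 7604 CPM in the runners and 4558 to 8412 CPM in the NC rats. The 7 smooth muscle and pericyte markers put the runners in the same order as *Cat*, and all 7 had a fitted log2 fold change above 0, with summed levels of 2010 to 3958 CPM in the runners and 1795 to 2261 CPM in the NC rats. The part of either list in the spread of *Cat* was not tested.

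*Sod2* (ENSRNOG00000019048) encodes the manganese superoxide dismutase of mitochondria. It was at 133, 182, 184, and 162 CPM in the runners and 135, 159, 174, and 134 CPM in the NC rats. The highest values came from runners and so did the lowest. The log2 fold change was 0.13 (SE 0.14, 95% interval −0.18 to 0.44, edgeR adjusted p = 0.783). With 1 rat left out it ran from 0.08 (without 12 h p.r. replicate 3) to 0.22 (without 12 h p.r. replicate 1), and without 12 h p.r. replicate 3 and NC replicate 4 it was 0.03.

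*Sod3* (ENSRNOG00000003869) encodes the secreted superoxide dismutase, which binds heparan sulfate and collagen in the extracellular matrix. In the 12 h p.r. rats it was at 443, 393, 359, and 509.8 CPM. In the NC rats it was at 329, 318, 335, and 237 CPM. Every runner was above every NC rat, and *Sod3* was the 1 member of 9 with no overlap between the groups, beside 3.52% of all genes higher and 2.55% lower without overlap. Means of 426 ± 65.7 CPM and 305 ± 45.4 CPM (SD, n = 4 each) gave a log2 fold change of 0.48 (SE 0.16, 95% interval 0.13 to 0.84), or 1.40 times the NC level. Its unadjusted edgeR p was 0.0132, where 5.44% of all genes were higher at an unadjusted p below 0.05, and it did not pass the adjusted test (edgeR adjusted p = 0.433). The 2-sided exact permutation test gave p = 0.0286, the smallest that 4 rats against 4 allow. DESeq2 gave an adjusted p of 0.165 (0.165 to 0.773 over 21 alternatives). The lowest rat of each group in *Sod3*, 12 h p.r. replicate 3 and NC replicate 4, was again the lowest in the tenocyte markers. Each was also the lowest in the cartilage and bone markers. Of the 9 tenocyte markers 6 had a fitted log2 fold change above 0. At an unadjusted p below 0.05, 3 of the 9 (33.3%) were higher at 12 h p.r. and 0 lower, beside 5.44% and 4.08% of all genes. The 3 were *Scx* (log2 fold change 0.62, groups without overlap), *Mkx* (0.78), and *Thbs4* (0.56), the last 2 with overlap. Those below 0 were *Tnmd* (−0.07), *Fmod* (−0.06), and *Col1a1* (−0.11). The summed level of the 9 markers was 20104 to 56114 CPM in the runners and 34278 to 51472 CPM in the NC rats. *Sod3* had a log2 fold change of 0.40 with the tenocyte marker level as a covariate and 0.45 without both rats, and its unadjusted p stayed below 0.05 in all 21 alternatives.

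**Figure D2:**
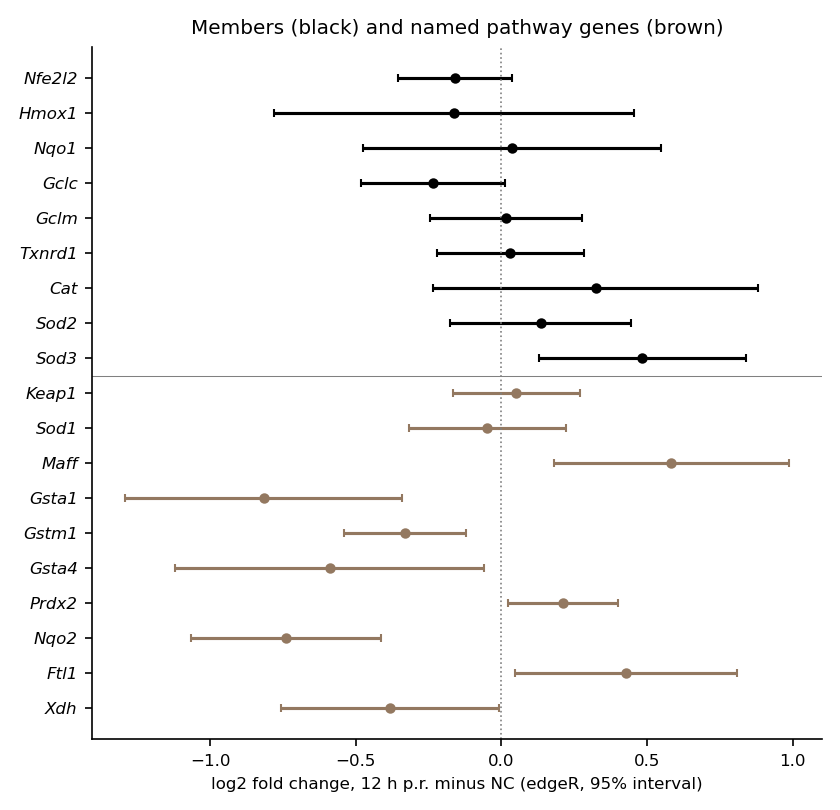
Log2 fold change (12 h p.r. minus NC) with its 95% interval from edgeR for the 9 members (black) and 10 genes of the pathway lists (brown). Among the members the interval excludes 0 only for *Sod3* (0.13 to 0.84), and it is widest for *Hmox1* (−0.78 to 0.46) and *Cat* (−0.23 to 0.88).

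Levels of different members were compared as FPKM, which is per gene length. In the NC group the order was *Sod3* at 176 ± 26.1, *Cat* at 86.0 ± 14.7, *Sod2* at 72.7 ± 9.15, *Nfe2l2* at 52.1 ± 3.88, and *Nqo1* at 20.3 ± 5.06 FPKM (SD, n = 4). *Hmox1*, *Gclc*, *Txnrd1*, and *Gclm* followed between 12.2 and 15.5 FPKM. Neighbours were compared by whether their ranges of mean ± 1 SD overlapped. The ranges of *Cat* and *Sod2* overlapped, as did those of each neighbouring pair from *Nqo1* down. *Sod3* was above *Cat*, *Sod2* above *Nfe2l2*, and *Nfe2l2* above *Nqo1* without overlap of these ranges. At 12 h p.r. the first 5 places were the same, with *Sod3* at 245 ± 37.6 and *Cat* at 107 ± 37.5 FPKM (SD, n = 4). There *Nqo1* was above *Txnrd1* without overlap of these ranges, and among the last 4 the ranges of all neighbours overlapped. The enzymes that act on superoxide or hydrogen peroxide held the first 3 places, and the enzymes of heme, quinone, glutathione, and thioredoxin metabolism the last 5. Among the 21046 genes with at least 1 read the members ranked from percentile 73.6 (*Gclm*) to 98.2 (*Sod3*) in mean FPKM over the 8 rats.

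**Figure D3:**
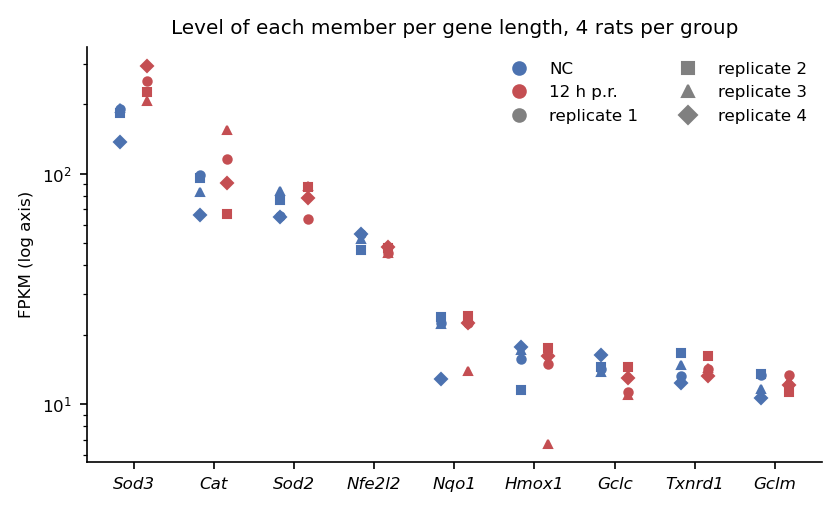
FPKM of each member on a log axis, with 1 point per rat, colour for the group, and marker shape for the replicate number. *Sod3* lies above all other members in the NC group and at 12 h p.r., and *Nqo1* and *Hmox1* each show single rats well below the others.

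The superoxide dismutases were also set beside each other. Besides the members, the list held *Sod1* and *Ccs*, the copper chaperone that loads SOD1, and 0 of these 2 genes had an unadjusted p below 0.05. *Sod1* (ENSRNOG00000002115), the cytosolic copper-zinc enzyme, was at 266 ± 29.3 FPKM in the runners and 276 ± 30.2 FPKM in the NC rats (SD, n = 4), with a CPM log2 fold change of −0.05 (SE 0.12, edgeR adjusted p = 0.922). The shares below were formed after the values had been seen and are given without a test. *Sod3* made up 46.2, 39.6, 36.3, and 43.6% of the summed *Sod1*, *Sod2*, and *Sod3* FPKM in the runners, and 33.9, 32.9, 37.1, and 29.8% in the NC rats. NC replicate 3 lay above runner replicate 3, so these shares overlapped although the *Sod3* levels did not. *Sod2* contributed 13.5 ± 2.24% and 13.9 ± 1.82% (SD, n = 4).

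The wider pathway was followed in 7 lists of 73 genes, of which 67 were tested. Of these, 35 had a log2 fold change above 0 and 32 below 0, with a median of 0.01. None passed the adjusted edgeR test (0 genes). DESeq2 called 2 pathway genes, where it called 95 of all 13937 genes. An unadjusted edgeR p below 0.05 was found for 9 pathway genes (13.4%), against 9.51% of all genes tested. The 9 split into 3 with a positive log2 fold change and 6 with a negative one. Over all genes, 5.44% reached that threshold with a positive and 4.08% with a negative change. Because the lists were drawn up knowing earlier results of these data, the 13.4% is not an independent test. Groups did not overlap for 1 gene higher and 4 lower, beside 3.52% and 2.55% of all genes.

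**Figure D4:**
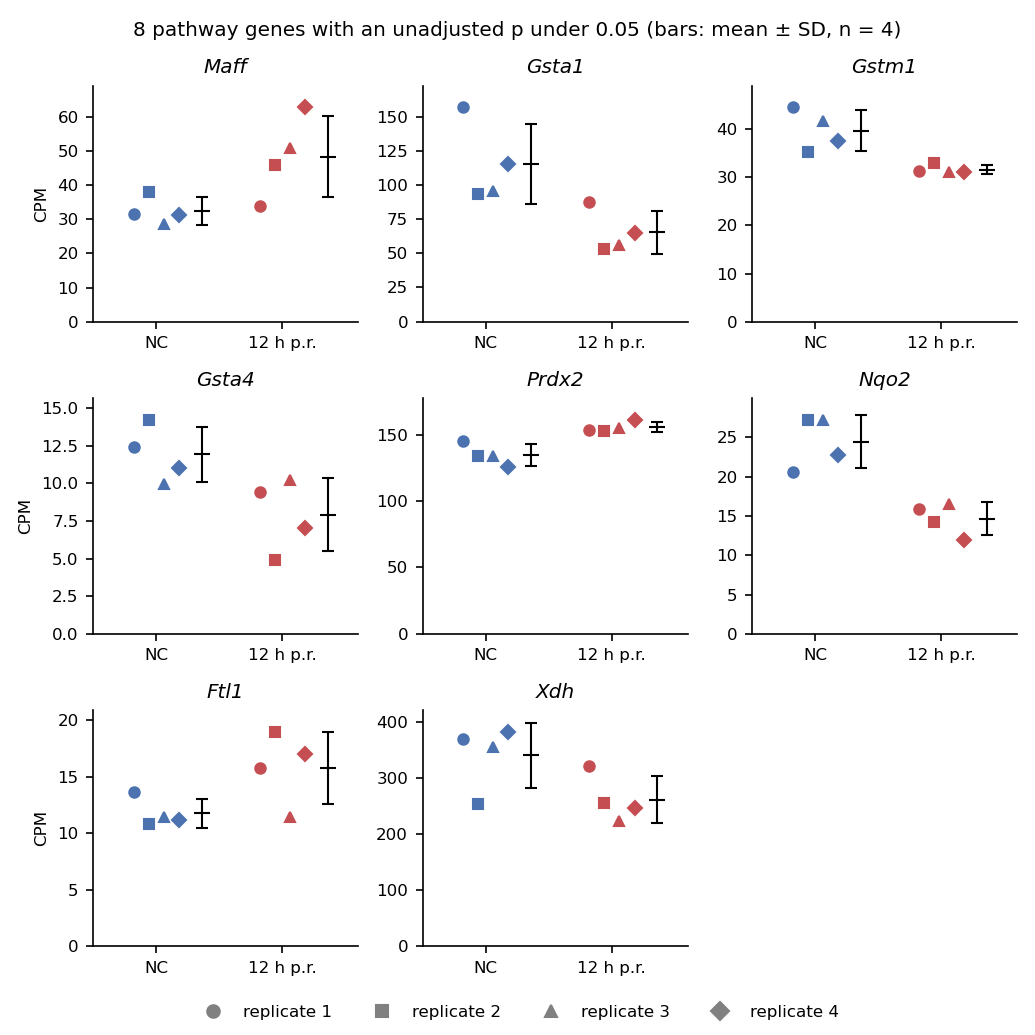
CPM (linear axis from 0) of 8 of the 9 pathway genes with an unadjusted edgeR p below 0.05, with 1 point per rat and bars for the mean ± SD of 4 rats. Of those shown, groups do not overlap for *Gsta1*, *Gstm1*, *Nqo2* (lower at 12 h p.r.), and *Prdx2* (higher).

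Among 12 regulators of NRF2, 10 had a log2 fold change above 0, with a median of 0.06. Beside 9.51% of all genes, 1 of the 12 (8.33%) had an unadjusted p below 0.05. That gene was *Maff* (ENSRNOG00000012886), a small MAF protein and so a DNA-binding partner of NRF2 and of BACH repressors. It was at 33.9, 46.0, 50.9, and 62.8 CPM in the runners and 31.5, 38.1, 28.5, and 31.4 CPM in the NC rats. Runner replicate 1 lay within the NC range and the other runners above it (log2 fold change 0.58, SE 0.18, edgeR adjusted p = 0.433).

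In the list of glutathione synthesis and transfer, 15 of 17 genes were tested, 7 above and 8 below 0. Beside 9.51% of all genes, 3 of the 15 (20%) had an unadjusted p below 0.05. All 3 were lower, as were 4.08% of all genes at that threshold. The 3 genes encode glutathione S-transferases, which join glutathione to electrophiles. *Gsta1* (ENSRNOG00000013484) was at 87.7, 53.0, 56.1, and 65.1 CPM in the runners and 157, 93.7, 95.2, and 115 CPM in the NC rats. Each runner was below each NC rat. Its log2 fold change was −0.82 (SE 0.21, edgeR adjusted p = 0.402), or 0.568 times the NC level, and DESeq2 gave an adjusted p of 0.0368 (0.0368 to 0.773 over 21 alternatives). *Gstm1* (ENSRNOG00000029726) was at 31.6 ± 0.877 CPM and 39.8 ± 4.18 CPM (SD, n = 4), without overlap, and *Gsta4* (ENSRNOG00000030449) at 7.90 ± 2.43 and 11.9 ± 1.84 CPM, with overlap. Their log2 fold changes were −0.33 and −0.59 (edgeR adjusted p = 0.432 and adjusted p = 0.489). Glutathione S-transferases have close paralogs, and how reads shared between genes were counted is not given in the sources used here, so the split between these genes is uncertain.

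All 5 tested genes of NADPH supply, which feeds the reductases of glutathione and thioredoxin, had log2 fold changes below 0. Over all genes tested, 6380 of 13937 were below 0. The median of the 5 genes was −0.11, beside 0.02 over all genes tested. None of the 5 passed the adjusted edgeR test, and DESeq2 called 0. An unadjusted p below 0.05 was found for 1 of them (20%), beside 9.51% of all genes.

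Of 12 thioredoxin and peroxiredoxin genes, 8 were above 0 and 4 below, with a median log2 fold change of 0.06. *Prdx2* (ENSRNOG00000003520), a cytosolic peroxiredoxin, was at 154, 153, 155, and 161 CPM in the runners and 145, 134, 134, and 126 CPM in the NC rats. The runners were tightly grouped above all NC rats, at a log2 fold change of 0.21 (SE 0.08, edgeR adjusted p = 0.489).

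In the list of quinone, aldehyde, and heme handling, 13 genes were tested, 6 above and 7 below 0. *Nqo2* (ENSRNOG00000017820), which encodes a quinone reductase related to *Nqo1* that uses dihydronicotinamide riboside instead of NADPH, had the lowest p of all pathway genes. It was at 15.9, 14.2, 16.5, and 11.9 CPM in the runners and 20.6, 27.2, 27.3, and 22.8 CPM in the NC rats. Every runner was below every NC rat, at 0.599 times the NC level. A log2 fold change of −0.74 (SE 0.14, 95% interval −1.07 to −0.41) had an edgeR adjusted p of 0.385, with a 2-sided exact permutation p of 0.0286. DESeq2 gave *Nqo2* an adjusted p of 0.00662 (0.00662 to 0.748 over 21 alternatives). The ratio of *Nqo1* to *Nqo2* FPKM, formed after the values had been seen and not tested, was 1.96, 2.34, 1.16, and 2.61 in the runners and 1.498, 1.21, 1.12, and 0.775 in the NC rats. Runner replicate 3, the rat low in *Nqo1*, lay among the NC rats in this ratio. *Ftl1* (ENSRNOG00000031506), a ferritin light chain gene with many near-identical copies and so an uncertain count, was at 15.8 ± 3.19 CPM and 11.7 ± 1.28 CPM (SD, n = 4), with overlap, and its log2 fold change was 0.43 (SE 0.17, edgeR adjusted p = 0.488).

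Among 8 tested genes of oxidant-producing enzymes, 3 were above and 5 below 0, with a median log2 fold change of −0.19. *Xdh* (ENSRNOG00000007081), the xanthine dehydrogenase that can release superoxide in its oxidase form, was at 321, 254, 223, and 245 CPM in the runners and 369, 254, 355, and 382 CPM in the NC rats. NC replicate 2 lay among the runners, and that rat was also the lowest of its group in the leukocyte markers. Among the runners replicate 3 was lowest in both, whereas replicate 1 was highest in *Xdh* and replicate 2 highest in the markers. For *Xdh* the log2 fold change was −0.38 (SE 0.17, edgeR adjusted p = 0.518). It was −0.23 with the leukocyte marker level as a covariate and −0.50 without NC replicate 2, and its unadjusted p was below 0.05 in 10 of 21 alternatives.

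Members and marker lists were last set side by side in each rat. In 8 marker lists 0 genes passed the adjusted edgeR test (5 of 57 tested had an unadjusted p below 0.05, or 8.77%, beside 9.51% of all genes, and 3 of the 5 were tenocyte markers), and the median log2 fold change of a list ran from −1.25 (4 tested cartilage and bone genes) to 1.49 (8 skeletal muscle genes). Further members shared the order of a marker list in the NC rats. *Nqo1* and *Gclm* had the order of the adipocyte markers, and *Sod2* that of the tenocyte and skeletal muscle markers. *Sod3* had the order of the cartilage and bone markers. The orders of all 9 members and 8 lists were set side by side in each group. With 4 rats per group such matches can arise by chance, and none was tested. Runner replicate 3 combined low *Hmox1* and *Nqo1* with the highest *Cat*, and NC replicate 4 combined low *Nqo1*, *Cat*, and *Sod3*. Without both of these rats 0 members passed the adjusted edgeR test and 1 had an unadjusted p below 0.05. That count was 3 without 12 h p.r. replicate 2 (*Sod3*, *Gclc*, and *Cat*) and 2 without NC replicate 2 (*Sod3* and *Nfe2l2*).

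**Figure D5:**
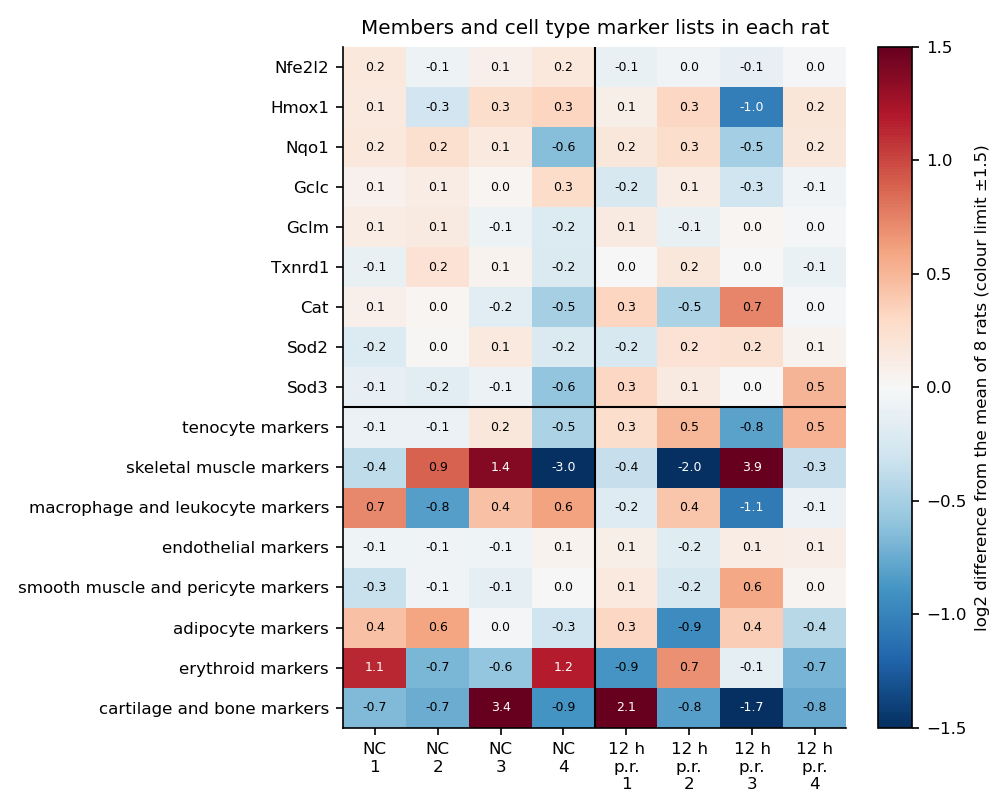
Difference of each rat from the mean of the 8 rats on the log2 CPM scale for the 9 members (top) and for the mean of 8 marker lists (bottom), with colour limited to ±1.5 and the value printed in each cell. *Hmox1* in runner replicate 3 is the lowest member value (−1.0), and the skeletal muscle (3.9) and cartilage and bone (3.4, NC replicate 3) markers spread over a wider range than any member.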

How the data were processed

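Per the submitters' processing notes and the study's methods, the authors aligned reads to Rnor_6.0 with HISAT2 2.1.0 (strand-specific setting) and assigned them to Ensembl genes with featureCounts 1.6.3. The deposited count table holds whole reads without normalization. The deposited FPKM values are counts per gene length and per rat factor, which matched DESeq2 size factors within 0.252%. A further deposited table of the authors' own comparison (DESeq2 1.30.1) gives log2 fold changes and p-values per gene, which were not used.

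Counts were filtered with filterByExpr, TMM-scaled, and tested with edgeR 4.0.16 (glmQLFit and glmQLFTest, R 4.3.3), with Benjamini-Hochberg adjustment over 13937 genes. Standard errors came from the F statistic. Exact permutation tests on log2(CPM + 0.5) covered all 70 assignments of the 8 rats. Alternatives used DESeq2 1.42.0, limma 3.58.1 on log2(FPKM + 1) and log2(FPKM + 0.1), other factors and filters, marker levels as covariates, a replicate block, and each rat left out. Python 3.11.15 and matplotlib 3.10.9 made the promoter search and the plots.

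The members and lists were chosen with earlier results of these data known. Named were all members, *Keap1*, and of each pathway list the genes with an unadjusted p below 0.05 (at most 4), or else its gene with the highest mean FPKM. The values of 1 gene of the NADPH supply list that this rule selects are not reported here. The lowest member count was 89 reads in 1 rat, so counting error adds to the spread of the low members. Promoter sequences are from another build (GRCr8) than the counts, and no Rnor_6.0 coordinates are given.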

Additional observations from a re-analysis of the deposited data

Results flagged for a closer look

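In 34 groups of 4 values, 1 for each group of rats in each member and in each marker list, the rat farthest from the others was examined with Dixon's criterion. It set a rat apart in 7 of them, where chance gives about 1 in 20 groups, or 1.7 here. The 34 groups are repeated values of the same 8 rats and are not independent, so 7 beside 1.7 is not a test. All values are log2(CPM + 0.5), averaged over genes for a list.

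Among the members, *Hmox1* in 12 h p.r. replicate 3 was low, at 3.47 with the next rat at 4.60. *Nqo1* was low in the same rat, at 4.50 with the next at 5.18. In the NC group replicate 4 was low in *Nqo1*, at 4.38 with the next at 5.16, and in *Sod3*, at 7.89 with the next at 8.32. Each of these is the rat lowest of its group in the tenocyte markers and in the cartilage and bone markers. Without NC replicate 4 the log2 fold change of *Sod3* was 0.38 in place of 0.48, and that of *Nqo1* was −0.13 in place of 0.04.

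Among the marker lists, endothelial genes were high in NC replicate 4, at 7.48 with the next rat at 7.37, and low in 12 h p.r. replicate 2, at 7.25 with the next at 7.52. Cartilage and bone genes were high in NC replicate 3, at 5.44 with the next at 1.33, and no member stood apart in that rat.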

How the results depend on the processing

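The tenocyte covariate, the removal of both rats low in tenocyte markers, and the use of FPKM in place of CPM for the overlap of groups were chosen after seeing the data. The count of members past the adjusted edgeR test was 0 in all settings and became 1 at an unadjusted p below 0.05. That unadjusted count of 1 became 2 with the muscle covariate and 2 with the tenocyte covariate (*Gclc* besides *Sod3*), and ran from 1 to 3 with 1 rat left out. The pathway count of 0 became 2 with DESeq2 (*Nqo2*, log2 fold change −0.75, and *Gsta1*, −0.82) and 9 unadjusted, and the unadjusted 9 ran from 5 to 11 with 1 rat left out (5 without 12 h p.r. replicate 4, NC replicate 3, or NC replicate 4). Over all genes the count of 1 became 95 with DESeq2, 1326 unadjusted, and 0 with limma on either FPKM scale, the replicate block, each covariate, each pair of rats removed, a fold of at least 2, or any 1 rat left out (0 to 0). The unadjusted 1326 ran from 879 (without NC replicate 4) to 1580. By median FPKM, 5 of 9 members kept their place in the 12 h p.r. order. The cause of these shifts was not tested.

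The main test did not treat the replicate numbers as pairs. Correlations of same-numbered rats, taken as deviations from their group mean over all genes tested, were 0.07, −0.20, 0.13, and 0.09. Such values cannot show whether rats of the same number shared any handling. With the number as a block, 4 pathway genes and 974 of all genes had an unadjusted p below 0.05, 0 members passed the adjusted test, and *Sod3* had a log2 fold change of 0.48.

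*Sod3*, *Nqo2*, and *Gsta1* kept their direction in 21 of 21 settings. The unadjusted p stayed below 0.05 in all 21 for *Maff* and *Gstm1* too, in 16 for *Gsta4*, 13 for *Ftl1*, 11 for *Prdx2*, and 10 for *Xdh*. Members near 0 changed sign. *Hmox1* became 0.075 with the leukocyte covariate and 0.064 without 12 h p.r. replicate 3. Without 12 h p.r. replicate 3 and NC replicate 3, the pair chosen as high in muscle or cartilage markers, it became 0.11. Runner replicate 1, also high in cartilage and bone markers, was kept in that setting. Without both rats low in tenocyte markers *Hmox1* became 0.13, and it ran from −0.30 to 0.064 with 1 rat left out. *Nqo1* became −0.14 with the tenocyte covariate and ran from −0.13 to 0.19 with 1 rat left out. *Gclm* became −9.0e-05 with the muscle and −0.033 with the leukocyte covariate, −0.016 and −0.055 without these pairs of rats, and ran from −0.049 to 0.064. *Txnrd1* became −0.0080 with the leukocyte covariate and −0.030 without the pair low in tenocyte markers, and ran from −0.036 to 0.11. *Cat* became −0.011 without that pair. *Keap1* became −0.015 with the leukocyte covariate and −0.028 without the pair high in muscle or cartilage markers, and ran from −0.0072 to 0.12. *Sod1* ran from −0.11 to 0.0086.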
